A study of Mus musculus with 12 samples.

Results

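The 8 genes described here are used as markers of the myoepithelial, or basal, cell of the mammary gland: Trp63, Oxtr, Mme, Acta2, Tagln, Cnn1, Myh11 and Mylk. In these data they did not move as a set, since Trp63 and Oxtr were higher in spheroids and the other 6 lower. All 8 were chosen by symbol as p63 and smooth muscle genes, and each matched 1 row among the 28427 gene rows of the deposited tables. RNA was sequenced from mammary epithelial cells of C57BL/6 mice in 4 groups of 3 libraries. Monolayers on collagen-coated dishes were taken after 48 h (48M) or 96 h (96M), and spheroids grown in Matrigel, which is extracted basement membrane, after 48 h (48S) or 96 h (96S). The medium of each format contained progesterone and prolactin, and that of the gels was replaced at 48 h. The formats differ in matrix as well as in shape, and these cannot be told apart. No mutation or transgene is labelled in any group. The series calls the 3 libraries of a group biological replicates, but no label says whether they came from separate mice. The p-values therefore measure the spread between these libraries, which may be technical. In bulk RNA, fewer myoepithelial cells and less RNA per cell cannot be told apart, which holds for every result below.

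Myoepithelial cells form the outer layer of mammary ducts and alveoli and rest on the basement membrane. They combine a basal epithelial programme, which depends on the transcription factor p63, with a contractile apparatus shared with smooth muscle, and they eject milk when oxytocin binds its receptor. Smooth muscle genes are classic targets of serum response factor (SRF), which binds the CArG box and is switched on by its partners of the myocardin family, MRTF-A among them, when actin filaments assemble. The same smooth muscle genes are also expressed by pericytes and by activated fibroblasts, while p63 and the basal keratins are epithelial.

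Promoter sequences of RefSeq (build GRCm38.p6, another build than that of the counts) were available for 5 of the 8 genes, Acta2, Cnn1, Mylk, Oxtr and Mme, as windows from 250 bases before to 50 bases after a start. They are shown because 5 of the 8 genes encode contractile proteins that moved together. The CArG box is CC, then 6 bases of A or T, then GG, and each motif was searched on both strands. In its exact consensus it was in 0 of the 7 windows of these 5 genes and in 1.63% of all 32851 windows. A looser form, in which 1 of the 6 central bases may be C or G, was in 9.98% of all windows and, among the 8 genes, in that of Acta2. Acta2 held it at 84 and 34 bases before the start, at chr19:34255438-34255467 and chr19:34255388-34255417 on the minus strand, with the bases read from that strand. Each window is RefSeq sequence upstream of the start, though the Acta2-201 transcript of GENCODE begins further upstream and its exon covers the Acta2 windows. For comparison, the same search found boxes before the starts of the cytoplasmic actin gene Actg1, the calponin paralog Cnn2 and the smooth muscle light chain gene Myl9. They lie at chr11:120348566-120348595 (minus strand) for Actg1, chr10:79988534-79988563 (plus strand) for Cnn2, and chr2:156775293-156775322 and chr2:156775355-156775384 (plus strand) for Myl9, and no GENCODE exon of these genes covers them. Capitals mark the 10 bases of the box, with 10 bases on each side.
Acta2, 84 bases before the start: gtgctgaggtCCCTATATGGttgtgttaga
Acta2, 34 bases before the start: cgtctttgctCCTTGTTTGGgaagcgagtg
Actg1, 90 bases before the start: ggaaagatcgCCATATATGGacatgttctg
Cnn2, 56 bases before the start: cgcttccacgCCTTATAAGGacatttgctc
Myl9, 161 bases before the start: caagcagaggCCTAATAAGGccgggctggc
Myl9, 99 bases before the start: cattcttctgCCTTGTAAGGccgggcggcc
The boxes of Actg1 and Cnn2 and the one of Myl9 at 161 bases match the exact consensus, while both Acta2 boxes and the one of Myl9 at 99 bases have 1 C or G in the centre. Of 18 further contractile genes with a window, 5 held a box of the looser form, and 4 of these 5 had an exact one (22.7% and 18.2% of 22 windows). Of 19 close relatives of the 8 genes with a window, Actg1 and Cnn2 among them, 5 held the looser form, and 4 of these 5 had an exact box (20.8% and 16.7% of 24 windows). CATTCC, the MCAT motif of TEAD factors, was in the windows of Acta2, Mylk and Mme on either strand and in 14.7% of all windows. Oxtr held the E-box forms CACGTG and CACCTG, found in 7.15% and 20.2% of all windows, and TATAAA was in 0 windows of the 5 genes and in 13.6% of all. A match is a description of letters in these windows and says nothing about binding in these cells.

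Depth ran from 7674105 to 13554497 counts per library, so that the detection limit of 3 counts amounts to 0.221 to 0.391 CPM (CPM scales counts to a common library size, adjusted by TMM). All 8 genes passed the filter on low counts, as did 13951 genes in all. Of the epithelial markers, Epcam, the gene of an epithelial adhesion molecule, stood at 850 to 1363 CPM as group means, and Krt8, a luminal keratin gene, at 1433 to 4249 CPM. The 9 epithelial markers summed to 11397.5 to 13107.5 CPM in 48M, 4979 to 5363 CPM in 96M, 7851 to 8393 CPM in 48S and 7284 to 7624.5 CPM in 96S. All 9 fell over time in monolayers (median log2 change -1.22), while in spheroids 4 rose and 3 fell. Between formats 5 were lower and 4 higher in spheroids at 48 h, and 1 was lower and 7 higher at 96 h. Among all tested genes, 31.3% fell and 30.1% rose over time in monolayers, and 20.5% fell and 19.3% rose in spheroids. In spheroids against monolayers, 26.4% of them were lower and 31.6% higher at 48 h, and 36.5% lower and 37.3% higher at 96 h. Krt14, a basal keratin, ranged from 73.6 ± 8.72 CPM in 96M to 1033 ± 43.7 CPM in 48S (SD, n = 3 each).

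**Figure D1:**
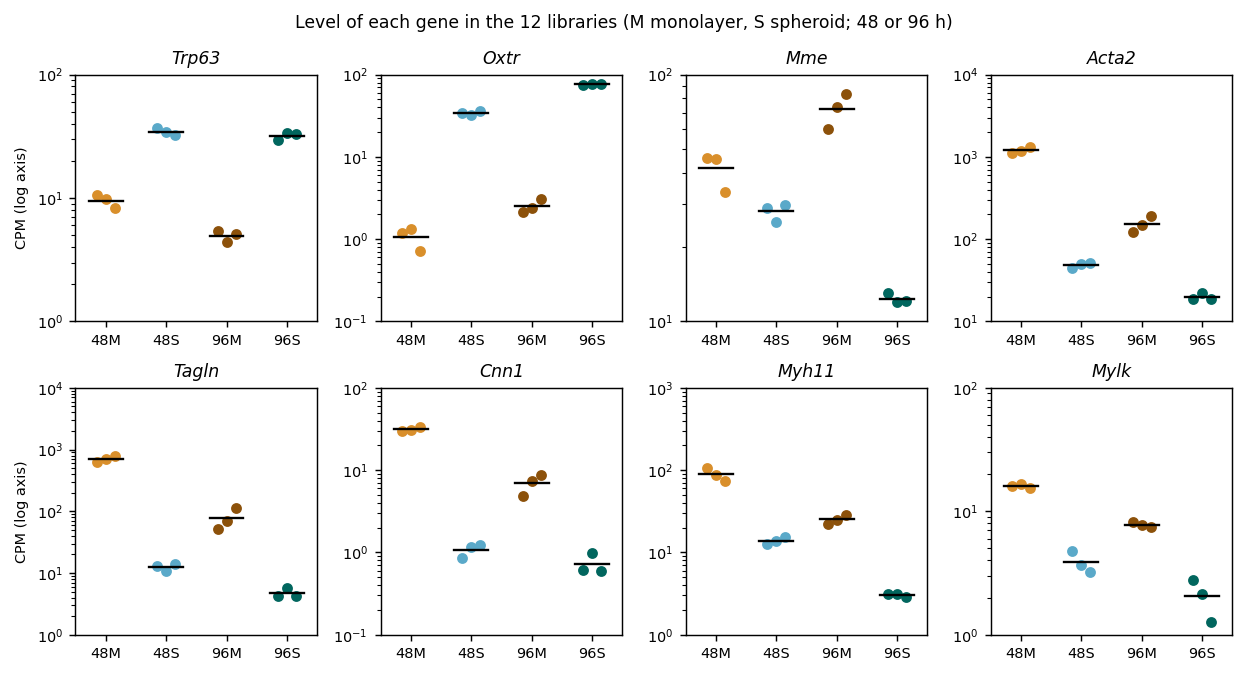
Level of each of the 8 genes in CPM on a log axis, with 1 point per library and a line at the mean of the 3 libraries of a group. Trp63 and Oxtr were highest in spheroids (Oxtr at 76.4 CPM on average in 96S), the 5 contractile genes were highest in 48 h monolayers (Acta2 at 1207 CPM on average), and Mme was highest in 96 h monolayers (72.3 CPM).

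Trp63 encodes p63, the transcription factor that maintains basal epithelial identity. At 48 h it stood at 10.5, 9.79 and 8.32 CPM in the monolayers and at 37.0, 34.3 and 32.2 CPM in the spheroids. By 96 h the monolayers held 5.36, 4.38 and 5.12 CPM and the spheroids 29.4, 33.7 and 32.9 CPM. Every spheroid library was above every monolayer library, and the groups of the same format overlapped between times in spheroids but not in monolayers. Trp63 was 3.62-fold higher in spheroids at 48 h (log2 change 1.86 ± 0.106 SE, adjusted p = 3.04e-11 by edgeR) and 6.36-fold higher at 96 h (2.67 ± 0.118, adjusted p = 3.97e-13). In monolayers it fell 1.90-fold from 48 h to 96 h (log2 change -0.92 ± 0.138, adjusted p = 1.5e-05). In spheroids the change over time did not pass the test (log2 change -0.11 ± 0.0911, adjusted p = 0.355). The 9 epithelial markers fell over time in monolayers too, with a median log2 change of -1.22. Whether the fall of Trp63 there differed from theirs was not tested. Per gene length, Trp63 was at 8.67 ± 0.608 FPKM in 48S and at 1.31 ± 0.156 FPKM in 96M (fragments per kilobase, scaled to depth; SD, n = 3 each).

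Oxtr encodes the oxytocin receptor, through which the hormone makes myoepithelial cells contract. In 48 h monolayers it was low, at 1.18, 1.33 and 0.716 CPM (36 counts in all), and in 48 h spheroids it stood at 33.8, 32.1 and 36.4 CPM. The 96 h monolayers had 2.16, 2.38 and 3.09 CPM and the 96 h spheroids 73.7, 77.7 and 77.7 CPM. The 4 groups did not overlap, in the order 96S, 48S, 96M and 48M. Spheroids exceeded monolayers 31.3-fold at 48 h (log2 change 4.97 ± 0.152, adjusted p = 5.24e-15) and 29.9-fold at 96 h (4.90 ± 0.121, adjusted p = 1.8e-16). From 48 h to 96 h Oxtr rose 2.35-fold in monolayers (1.23 ± 0.245, adjusted p = 0.000295) and 2.24-fold in spheroids (1.16 ± 0.0829, adjusted p = 2.25e-09). Counted from the highest log2 change between formats, Oxtr ranked 106 at 48 h and 83 at 96 h among the 13951 genes.

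Acta2 encodes alpha smooth muscle actin, the actin isoform of contractile cells. Its levels in the 48 h monolayers were 1127, 1167 and 1326 CPM, against 44.0, 49.5 and 50.6 CPM in the 48 h spheroids. The 96 h monolayers held 121, 147 and 190 CPM and the 96 h spheroids 18.7, 21.9 and 18.6 CPM. The order was 48M, 96M, 48S and 96S with no overlap between neighbours. Acta2 was 25.2-fold lower in spheroids at 48 h (log2 change -4.65 ± 0.136, adjusted p = 2.98e-15) and 7.77-fold lower at 96 h (-2.96 ± 0.137, adjusted p = 8.38e-13). Over time it fell 7.89-fold in monolayers (-2.98 ± 0.123, adjusted p = 8.95e-13) and 2.44-fold in spheroids (-1.29 ± 0.143, adjusted p = 8.3e-07). The row for Acta2 also carries the symbol AK080187, and RSEM may have divided reads between the near-identical actin genes.

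Tagln encodes transgelin, an actin-binding protein of smooth muscle. It followed the same order of groups, with 631, 714 and 779 CPM in the 48 h monolayers, 52.4, 68.6 and 115 CPM in the 96 h monolayers, 12.9, 10.9 and 13.9 CPM in the 48 h spheroids and 4.28, 5.76 and 4.23 CPM in the 96 h spheroids. Neighbouring groups did not overlap, and the 96 h monolayers spread most relative to their mean, with replicate 3 above the others. Tagln fell 8.99-fold over time in monolayers (log2 change -3.17 ± 0.185, adjusted p = 8.24e-11) and 2.65-fold in spheroids (-1.41 ± 0.310, adjusted p = 0.00138). At 96 h it was 16.6-fold lower in spheroids than in monolayers (-4.05 ± 0.250, adjusted p = 5.34e-11), and at 48 h its log2 change was -5.81 ± 0.226. In the mouse annotation of GENCODE, exons of Pcsk7 and Gm48529 overlap Tagln on the other strand, and no source used here says whether the counting used strand. Pcsk7, a proprotein convertase gene, moved the other way between the formats, with a log2 change of 0.50 at 48 h and 0.29 at 96 h.

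Cnn1 encodes calponin, an actin-binding regulator of smooth muscle myosin. Monolayers held 29.6, 30.5 and 33.7 CPM at 48 h and 4.88, 7.39 and 8.73 CPM at 96 h. Spheroids held 0.852, 1.16 and 1.22 CPM at 48 h and 0.612, 0.987 and 0.594 CPM at 96 h, which rest on 30 and 28 counts per group. The spheroid groups overlapped each other and lay below every monolayer library. Cnn1 was 29.1-fold lower in spheroids at 48 h (log2 change -4.86 ± 0.216, adjusted p = 8.55e-13) and 9.44-fold lower at 96 h (-3.24 ± 0.265, adjusted p = 2.96e-09). It fell 4.51-fold over time in monolayers (-2.17 ± 0.153, adjusted p = 1.05e-09), while its log2 change in spheroids of -0.55 ± 0.403 did not pass (adjusted p = 0.299).

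Myh11 encodes the smooth muscle myosin heavy chain, the motor of the contractile apparatus. The 48 h monolayers stood at 105, 87.1 and 74.4 CPM, the 96 h monolayers at 22.0, 24.9 and 28.8 CPM, the 48 h spheroids at 12.6, 13.9 and 15.3 CPM and the 96 h spheroids at 3.13, 3.13 and 2.90 CPM. All 4 groups were apart from each other. Myh11 was 6.39-fold lower in spheroids at 48 h (log2 change -2.68 ± 0.126, adjusted p = 1.84e-12) and 8.24-fold lower at 96 h (-3.04 ± 0.169, adjusted p = 1.19e-11). It fell over time by 3.51-fold in monolayers (-1.81 ± 0.115, adjusted p = 2.42e-10) and by 4.53-fold in spheroids (-2.18 ± 0.188, adjusted p = 2.94e-08).

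Mylk encodes the myosin light chain kinase, which starts contraction when calcium rises. It was at 15.9, 16.7 and 15.4 CPM in 48 h monolayers, 8.16, 7.77 and 7.41 CPM in 96 h monolayers, 4.73, 3.71 and 3.23 CPM in 48 h spheroids and 2.75, 2.14 and 1.26 CPM in 96 h spheroids. These groups did not overlap either. Mylk was 4.07-fold lower in spheroids at 48 h (log2 change -2.02 ± 0.178, adjusted p = 1.44e-08) and 3.79-fold lower at 96 h (-1.92 ± 0.205, adjusted p = 1.1e-07). It fell 2.05-fold over time in monolayers (-1.04 ± 0.157, adjusted p = 1.84e-05) and 1.91-fold in spheroids (-0.94 ± 0.233, adjusted p = 0.00361). The fall in spheroids did not pass on the authors' log2 FPKM values (log2 change -0.34, adjusted p = 0.0542 by limma). Exons of E130310I04Rik and Gm21691 overlap Mylk on the other strand in GENCODE, so the limit on strand given for Tagln holds here too.

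Mme encodes neprilysin, also called CD10 or CALLA, a membrane peptidase used as a surface marker of myoepithelial cells. It stood at 45.8, 45.7 and 33.5 CPM in 48 h monolayers and at 28.7, 25.4 and 29.7 CPM in 48 h spheroids. At 96 h it was at 59.9, 73.9 and 83.1 CPM in monolayers and at 13.0, 12.01 and 12.1 CPM in spheroids. Its order of groups, 96M, 48M, 48S and 96S without overlap, differed from that of the contractile genes. Mme was 1.49-fold lower in spheroids at 48 h (log2 change -0.57 ± 0.128, adjusted p = 0.000811) and 5.83-fold lower at 96 h (-2.54 ± 0.132, adjusted p = 4.22e-12). It rose 1.73-fold over time in monolayers (0.79 ± 0.117, adjusted p = 1.29e-05) and fell 2.26-fold in spheroids (-1.17 ± 0.144, adjusted p = 2.87e-06).

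**Figure D2:**
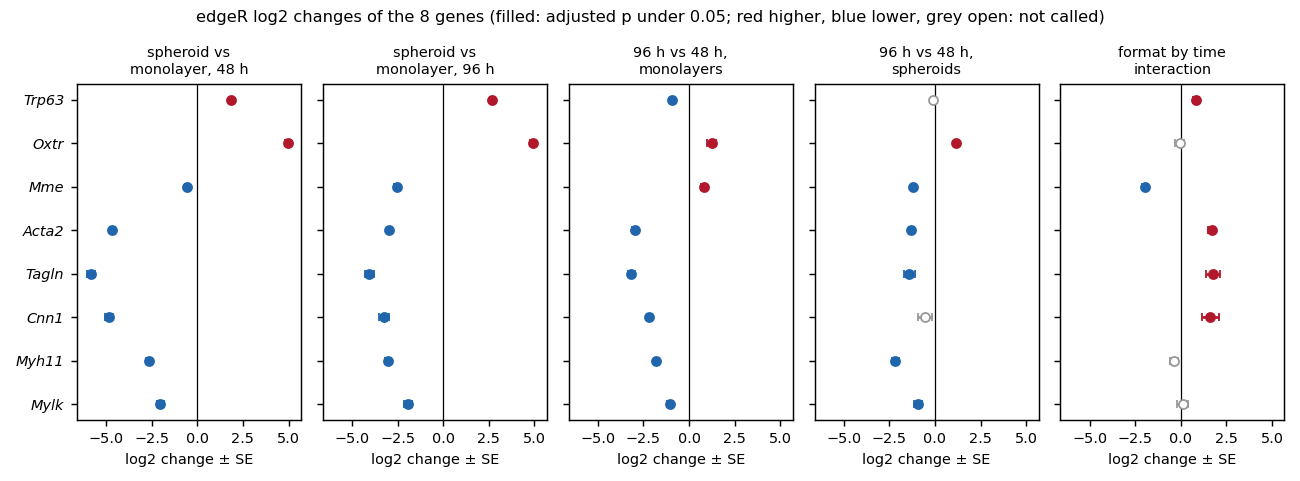
Log2 changes of the 8 genes with their SE in the 5 comparisons, from edgeR. Filled points passed at an adjusted p under 0.05 (red higher, blue lower). Trp63 and Oxtr lie to the right and the other 6 genes to the left in the comparisons of format at 48 h and at 96 h.

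All 8 genes passed in the comparison of formats at 48 h, where 57.9% of all tested genes did, and at 96 h, where 73.8% did. The 2 groups of libraries did not overlap in any of the 8 genes at 48 h or at 96 h, and the same held for 60.0% and 78.9% of all genes. At each time 2 were higher in spheroids, Trp63 and Oxtr, and 6 were lower, against backgrounds of 31.6% higher and 26.4% lower at 48 h and 37.3% higher and 36.5% lower at 96 h. The median log2 change of the 8 was -2.35 at 48 h and -2.75 at 96 h, beside 0.05 and 0.00 over all tested genes. In monolayers over time all 8 passed (61.3% of all genes), 6 lower and 2 higher, with Mme and Oxtr as the genes that rose (background 31.3% lower and 30.1% higher), and the groups did not overlap in all 8 (63.8% of all genes). In spheroids over time 6 passed (39.8% of all genes), 5 lower and 1, Oxtr, higher (background 20.5% lower and 19.3% higher), and the groups did not overlap in those 6 (53.8% of all genes). With so many genes passing, the counts alone say little about these 8, and the sizes of their changes are given for that reason.

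The interaction tests whether the spheroid effect at 96 h differed from that at 48 h, and 5 of the 8 genes passed, where 53.3% of all tested genes did, 4 upwards and 1 downwards (background 26.9% and 26.4%). It was positive for Acta2 (log2 1.70 ± 0.185, adjusted p = 4.79e-07), Tagln (1.76 ± 0.372, adjusted p = 0.000651) and Cnn1 (1.62 ± 0.447, adjusted p = 0.00524), whose deficit in spheroids was smaller at 96 h, when the monolayers had fallen. For Trp63 it was positive as well (0.81 ± 0.166, adjusted p = 0.000473), and for Mme negative (-1.97 ± 0.185, adjusted p = 7.07e-08), as its deficit grew. Myh11 (-0.37 ± 0.227, adjusted p = 0.182), Mylk (0.10 ± 0.292, adjusted p = 0.794) and Oxtr (-0.07 ± 0.239, adjusted p = 0.838) did not pass. The Trp63 interaction did not pass on the authors' log2 FPKM values (0.21, adjusted p = 0.198 by limma). Myh11 passed without replicate 1 of the 48 h monolayers (-0.49, adjusted p = 0.0413).

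Counts were low for Oxtr in monolayers and Cnn1 in spheroids, and an SE taken from the test can be too small there. The authors' log2 FPKM values contain an added 1, which shrinks the changes of low genes, and no TMM factors were applied to them. The parts of the 2 were not separated. On these values the change of several low genes was smaller by a factor above 1.5, such as Oxtr at 48 h (2.79) and, at 96 h between formats, Myh11 (-1.76), Cnn1 (-1.86) and Mylk (-0.996). Over time this was so for Trp63 (-0.43) and Oxtr (0.37) in monolayers and for Myh11 in spheroids (-1.08). All of these still passed.

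Each contractile protein has non-muscle relatives that most cells use, so the smooth muscle gene was also set against its family per gene length. Acta2 made up 7.78 ± 0.135% of the summed FPKM of Acta2 and the cytoplasmic actins Actb and Actg1 in 48M, 2.39 ± 0.482% in 96M, 0.715 ± 0.0371% in 48S and 0.311 ± 0.0277% in 96S (SD, n = 3 each). Tagln made up 38.3 ± 1.58% of Tagln and Tagln2 in 48M, 18.4 ± 5.54% in 96M, 1.72 ± 0.271% in 48S and 0.787 ± 0.110% in 96S. The share of Cnn1 in the calponins Cnn1, Cnn2 and Cnn3 was 2.63 ± 0.166%, 1.33 ± 0.235%, 0.258 ± 0.0162% and 0.187 ± 0.0350% in the same order of groups. That of Myh11 in the heavy chains Myh11, Myh9, Myh10 and Myh14 was 2.49 ± 0.253%, 1.01 ± 0.0713%, 0.766 ± 0.0647% and 0.191 ± 0.00547%. In each of the 4 families the share was highest in 48 h monolayers and lowest in 96 h spheroids, with overlap between the spheroid groups in none of them.

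**Figure D3:**
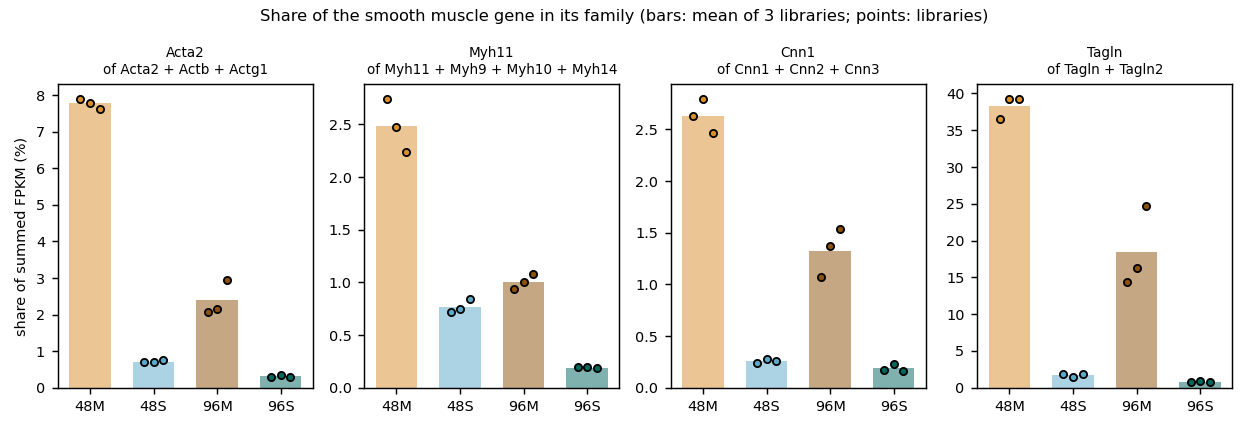
Share of the smooth muscle gene in the summed FPKM of its family, in percent, with bars for the mean of 3 libraries and a point per library. The Tagln share ran from 38.3% in 48 h monolayers to 0.787% in 96 h spheroids.

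The relatives themselves moved too. Actb fell in spheroids at 48 h (log2 change -1.30) but its value of -0.05 at 96 h did not pass, and Actg1 had -0.87, which passed, and 0.09, which did not. Tagln2 was lower in spheroids at 48 h (-0.66) and higher at 96 h (0.81). Myh9, the main non-muscle heavy chain at 443 ± 40.9 FPKM in 48M, was lower at 48 h (-1.20) and at 96 h (-0.94), while Myh14 was 2.29-fold higher at 48 h and higher by 1.87 (log2) at 96 h. Actg2, the gamma smooth muscle actin, was 23.6-fold lower at 48 h and 30.8-fold lower at 96 h (-4.94 on the log2 scale, and -3.14 by limma on log2 FPKM). Of the p53 family, Trp53 had a log2 change of 0.03 at 48 h, which did not pass, and of 0.32 at 96 h, which passed. Trp73 held 0 counts in 48M, 4 in 96M, 18 in 48S and 60 in 96S. The vasopressin receptor Avpr1a, a relative of Oxtr, did not pass between formats (0.24 at 48 h and -0.14 at 96 h). Actin genes share long stretches of sequence, so the division of reads among them is uncertain.

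Other parts of the smooth muscle contractile apparatus were lower in spheroids: of 20 listed genes, all tested, 19 were lower and 1 higher at 48 h, and 17 lower and 2 higher at 96 h. The list's median log2 change was -1.40 at 48 h and -0.81 at 96 h, beside 0.05 and 0.00 over all genes. The background was 26.4% lower and 31.6% higher at 48 h, and 36.5% lower and 37.3% higher at 96 h. Myl9, the smooth muscle regulatory light chain, was 19.6-fold lower at 48 h and 15.3-fold lower at 96 h. Lmod1, a leiomodin that nucleates actin, was 7.89-fold and 4.54-fold lower, and Des, the intermediate filament protein desmin, 4.48-fold and 10.4-fold lower. Ppp1r14a, an inhibitor of myosin phosphatase, had log2 changes of -2.18 and -2.48. On the log2 FPKM values the changes of Lmod1 were -1.39 and -0.67, those of Des -0.77 and -0.87, and those of Ppp1r14a -1.20 and -1.42, all of which passed by limma. The gene that rose at each time was Itga8, an integrin subunit of smooth muscle, which was 5.34-fold higher at 48 h and 5.88-fold higher at 96 h, and Myl6, an essential light chain used by muscle and non-muscle myosin, was the other that rose at 96 h (0.69). Over time 15 fell and 1 rose in monolayers (median -0.92, beside 0.01 over all genes), and 8 fell and 4 rose in spheroids (median -0.26, beside 0.01). Among all tested genes, 31.3% fell and 30.1% rose in monolayers, and 20.5% fell and 19.3% rose in spheroids.

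**Figure D4:**
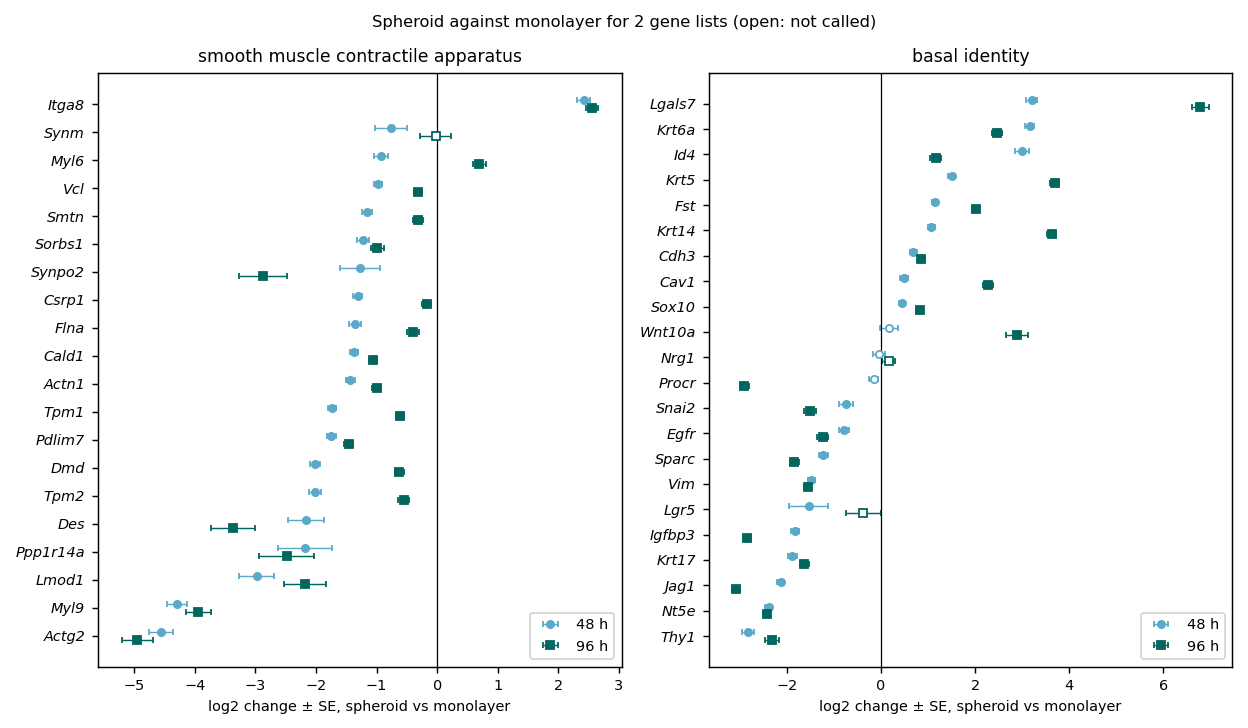
Log2 change with SE between spheroids and monolayers at 48 h (circles) and 96 h (squares) for the contractile list and the basal identity list, with open symbols for genes that did not pass. Contractile genes lie left of 0 except Itga8 and, at 96 h, Myl6, while the basal list is split, with Lgals7 far to the right (6.78 at 96 h) and Jag1 to the left (-3.08).

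Of the regulators of smooth muscle genes and their targets, Srf fell in spheroids at 48 h (log2 change -0.50) and had a value of 0.02 at 96 h, which did not pass. Mrtfa, the gene of MRTF-A, was lower at 48 h (-0.74) and 96 h (-0.69), and Mrtfb did not pass at either time (0.17 and -0.01), though it passed at 48 h without replicate 1 of 48M (0.30, adjusted p = 0.0283). Myocd, the gene of myocardin, did not pass the low-count filter, with 26 counts in 48M, 16 in 96M, 2 in 48S and 3 in 96S. Cyr61, a target of SRF and of YAP, had log2 changes of -2.96 and -1.35, and Fhl2, a LIM protein and SRF target, -1.63 and -0.36. Tead1 was lower (-1.19 and -0.45) and Tead4 higher (1.83 and 2.29), and these encode TEAD factors that bind the MCAT motif. Klf4, a factor known to repress smooth muscle genes, was lower too (-1.09 and -0.98). In all, 7 of 10 tested genes of this list were lower and 2 higher at 48 h, with a median of -0.62, and 6 were lower and 1 higher at 96 h, with a median of -0.31. Over time 8 fell and 1 rose in monolayers, while in spheroids 1 fell, Klf4 (-0.57), and 0 rose, though 4 passed in a fit of the spheroid libraries alone. Backgrounds over all tested genes were 26.4% lower and 31.6% higher at 48 h, and 36.5% lower and 37.3% higher at 96 h. The share of the list called at 96 h was below the 73.8% of all tested genes. Over time, 31.3% of all tested genes fell and 30.1% rose in monolayers, and 20.5% fell and 19.3% rose in spheroids.

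Of 12 tested rows for genes that set the phosphorylation of the myosin light chain, 8 were lower and 2 higher at 48 h (median -0.21), and 3 lower and 4 higher at 96 h (median -0.01). The share called was above the 57.9% of all tested genes at 48 h and below their 73.8% at 96 h. Ppp1r12b, a myosin phosphatase subunit of muscle, was lower at 48 h (-2.08) and 96 h (-1.30), as was Rnd3 (-0.97 and -0.60). Rhoa was lower at 48 h (-0.33) and higher at 96 h (0.33), and its value at 48 h was -0.22 with total count scaling. Calm2, 1 of the 3 calmodulin genes, was higher at 96 h (1.07), and its value of -0.14 at 48 h did not pass, though it did without replicate 1 of 48M (-0.25, adjusted p = 0.00376).

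Of 15 tested signalling genes downstream of the oxytocin receptor, 7 were higher and 4 lower in spheroids at 48 h (median 0.15), and 4 higher and 5 lower at 96 h (median 0.04). The share called was again above that of all tested genes at 48 h, 57.9%, and below it at 96 h, 73.8%. Gnaq, a G protein subunit through which the receptor signals, was at -0.25 at 48 h, which passed, and at -0.12 at 96 h, which did not. The former did not pass with total count scaling (-0.14, adjusted p = 0.102) or on log2 FPKM (-0.13, adjusted p = 0.135 by limma), and the latter passed in 4 of 20 alternatives. Plcb1, a phospholipase C, was higher at 48 h (1.43) and 96 h (0.70, which did not pass without replicate 1 of 96M, at 0.61 and adjusted p = 0.056), but only by 0.35 and 0.20 on the log2 FPKM values, while Plcb4, another, was lower (-1.91 and -2.43). Rgs2, which dampens Gq signalling, had the largest rise of the 15 genes, from 3.60 ± 1.12 CPM in 48M to 61.2 ± 2.98 CPM in 48S (log2 change 4.08), and stood at 11.4 ± 1.87 CPM in 96M against 48.3 ± 4.24 CPM in 96S (2.06). Cacna1c, a voltage-gated calcium channel, was lower (-0.63 and -1.34, the latter -0.56 on log2 FPKM). Its call at 48 h was lost without replicate 1 of 48M (-0.50, adjusted p = 0.0761), replicate 2 of 48M (-0.58, adjusted p = 0.0589) or replicate 2 of 48S (-0.55, adjusted p = 0.0695), and on log2 FPKM (-0.37, adjusted p = 0.108 by limma).

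The wider basal identity list was split. Of 22 tested genes, 9 were higher and 10 lower in spheroids at 48 h (median -0.10), and 10 higher and 10 lower at 96 h (median -0.11). Of all tested genes, 31.6% were higher and 26.4% lower at 48 h, and 37.3% higher and 36.5% lower at 96 h. Krt5 and Krt14, the paired keratins of basal cells, were higher at 48 h (2.83-fold for Krt5 and a log2 change of 1.06 for Krt14) and at 96 h (log2 changes of 3.69 and 3.62). Lgals7, a galectin of stratified epithelia, was higher by 3.20 and 6.78, and Krt6a, another keratin gene, by 3.16 and 2.47. Id4, a regulator of mammary basal cells, was higher (2.99 and 1.16), as were Cdh3, the P-cadherin gene (0.69 and 0.85), and Sox10 (0.44 and 0.82). On the other side Krt17, a keratin of basal and stressed epithelium, was lower (-1.89 and -1.63), as were Jag1, a Notch ligand (-2.13 and -3.08), Thy1 (-2.82 and -2.32), Vim, the vimentin gene (-1.48 and -1.56), and Snai2, the gene of the repressor Slug (-0.75 and -1.51). Nt5e was lower as well (-2.38 and -2.43), while Procr did not pass at 48 h (-0.16) and was lower at 96 h (-2.91). In monolayers over time 12 of the 22 genes fell and 5 rose (median -0.74), with Krt5 at -2.91 and Krt14 at -2.74. In spheroids 12 fell and 3 rose (median -0.42), with Krt5 at -0.72 and Krt14 at -0.19, which did not pass (adjusted p = 0.0613) but did in 7 of 20 alternatives. The background over time was 31.3% lower and 30.1% higher in monolayers, and 20.5% lower and 19.3% higher in spheroids.

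Among genes known as p63 targets in epithelia, 13 of 23 tested were higher and 7 lower in spheroids at 48 h (median 0.39), and 16 were higher and 7 lower at 96 h (median 0.82, beside 0.00 over all genes). Higher at 48 h and 96 h were Col17a1, a hemidesmosome collagen (1.55 and 2.13), Perp, a desmosome protein (0.85 and 1.29), Itga6, a laminin receptor subunit (1.88 and 1.19), and Jag2, a Notch ligand (2.59 and 1.66). Fermt1, the gene of kindlin-1 (-2.62 and -2.15), and the laminin subunit gene Lama3 (-1.10 and -1.84) were lower. Over time 12 fell and 3 rose in monolayers (median -0.51), and 14 fell and 2 rose in spheroids (median -0.37), where Trp63 itself did not pass. Of all tested genes, 31.3% fell and 30.1% rose in monolayers, and 20.5% fell and 19.3% rose in spheroids, with a median of 0.01 in each. Between formats, 31.6% of all tested genes were higher and 26.4% lower at 48 h, and 37.3% higher and 36.5% lower at 96 h. Krt5, Krt14 and Jag1 stand on this list and on the basal one.

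**Figure D5:**
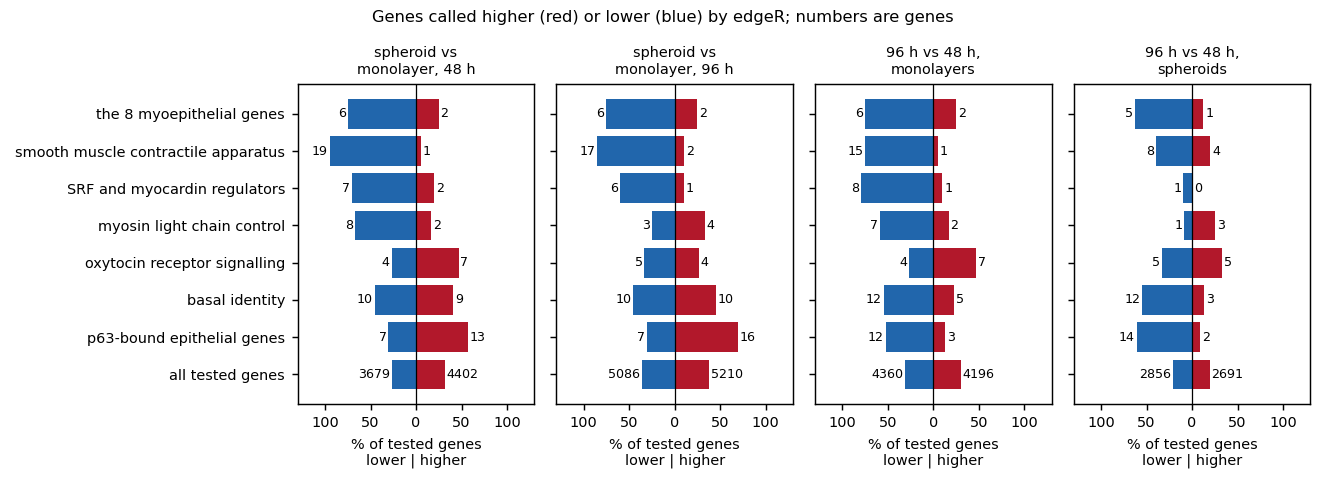
Percent of the tested genes of each list that were called higher (right, red) or lower (left, blue) by edgeR in 4 comparisons, with the number of genes at each bar and all tested genes at the bottom. The contractile list had 19 genes lower and 1 higher at 48 h, and the p63-bound list 16 higher and 7 lower at 96 h.

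Markers of other cells that express smooth muscle genes were present and moved with some of these results. The 12 fibroblast markers summed to 10565 to 11382 CPM in 48M, 2338 to 3419 CPM in 96M, 2739 to 2968 CPM in 48S and 940 to 981 CPM in 96S, with none at 0. Collagen genes led these sums, and Col1a1 was at 4029 ± 219 CPM in 48M against 719 ± 73.2 CPM in 48S. Pdgfra, a defining fibroblast receptor, had another course, with 47.2 ± 5.01 CPM in 48M, 90.8 ± 5.80 in 48S, 137 ± 17.3 in 96M and 18.5 ± 1.02 in 96S. Between formats 6 of the 12 markers were lower in spheroids and 5 higher at 48 h (median log2 change -0.37), and 6 were lower and 3 higher at 96 h (median -1.24). Over time 9 fell and 2 rose in monolayers (median -1.78), and 12 fell and 0 rose in spheroids (median -1.49), where 5 of the 8 myoepithelial genes fell. Backgrounds over all tested genes were 26.4% lower and 31.6% higher at 48 h, and 36.5% lower and 37.3% higher at 96 h. Over time, 31.3% of all tested genes fell and 30.1% rose in monolayers, and 20.5% fell and 19.3% rose in spheroids. Pdgfra and Dcn, the decorin gene, were higher in spheroids at 48 h (0.95 and 0.85), lower at 96 h (-2.88 and -2.08), and rose over time in monolayers (1.54 and 1.52), as Mme did. The part of fibroblasts in the results was not tested.

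The 10 pericyte and vascular smooth muscle markers summed to 466 to 540 CPM in 48M, 305 to 377 CPM in 96M, 257 to 268 CPM in 48S and 157 to 166 CPM in 96S. Their groups stood in the same order as those of Acta2. Of the 7 tested, 4 were lower and 2 higher at 48 h, and 5 lower and 1 higher at 96 h. The background for this list and the endothelial one was 26.4% lower and 31.6% higher at 48 h, and 36.5% lower and 37.3% higher at 96 h. Over time, 31.3% of all tested genes fell and 30.1% rose in monolayers, and 20.5% fell and 19.3% rose in spheroids. Rgs5, a defining pericyte gene, was near 0 everywhere, with 18 counts in 48M, 30 in 48S, 15 in 96M and 7 in 96S, and Higd1b was at 0 in 48S and 96S. Cspg4, the NG2 proteoglycan, fell in spheroids at 48 h (-3.46) and 96 h (-3.69), as did Pdgfrb (-0.53 and -1.36), with Cspg4 at -2.40 at 96 h on log2 FPKM. Notch3 (2.19) and Cox4i2 (2.80) were higher at 48 h. Endothelial markers, 8 in all with none at 0, summed to 82.9 to 102 CPM in 48M, 73.1 to 82.4 CPM in 48S, 92.8 to 101 CPM in 96M and 33.3 to 40.3 CPM in 96S. Of these 8, 4 were lower and 1 higher in spheroids at 48 h (median -0.48), 7 were lower and 1 higher at 96 h (median -3.01), 4 rose and 2 fell over time in monolayers (median 0.55), and 8 fell in spheroids (median -2.14). Vwf, the von Willebrand factor gene, was the one that was higher in spheroids, and it made up 22.5 ± 2.88 CPM of the sum in 96S (SD, n = 3). Cd68, a macrophage marker, stood at 2.44 ± 0.453 CPM in 48M, 4.86 ± 1.05 in 48S, 24.9 ± 4.95 in 96M and 5.02 ± 1.24 in 96S. It rose over time in monolayers (log2 change 3.34, adjusted p = 2.18e-10 by edgeR) and was 4.97-fold lower in spheroids at 96 h, and Mme rose and was lower in the same comparisons. Csf1r, the other immune marker tested, passed in neither (log2 change 0.13, adjusted p = 0.722, and -0.62, adjusted p = 0.089, by edgeR). Ptprc, the marker of all leukocytes, had at most 8 counts in a group, and Adipoq, of fat cells, at most 13. Plin1, also of fat cells, was at 0 in 48M and 96M. It was higher in spheroids at 48 h (log2 change 7.48) and at 96 h (3.63), where the groups overlapped. The part of these cells in the results was not tested.

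For each gene, the genes with the most similar course over the 12 libraries were found by Pearson's r of log2 CPM. Genes had to average 3 or more on that scale, and 9881 did. The libraries fall into 4 groups, so high values follow from the group means and carry no test. Acta2 and Tagln ran together (r = 0.996), and each had Kctd11 as its nearest other gene (0.997 and 0.998). The second nearest to Tagln was Postn, of the fibroblast list (0.997), and the third nearest to Acta2 was Cldn4, of the epithelial list (0.994). Lama2, a laminin subunit gene, was the second nearest to Myh11 (0.995). Cnn1 was nearest to Zyx, the zyxin gene of focal adhesions (0.998), Myh11 to Numbl (0.995) and Mylk to Pdlim7, a LIM protein of actin fibres (0.978). Oxtr was nearest to Vdr, the vitamin D receptor gene (0.998), and had Elf5, a transcription factor of milk-producing cells, as the third nearest (0.996). Trp63 was nearest to Mthfd1, a folate enzyme gene (0.994), and Mme to the row 9430020K01Rik (0.997). Among the 8 genes, Trp63 and Oxtr had r = 0.880, and Oxtr had negative values with all others, down to -0.962 with Cnn1.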

How the data were processed

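Total RNA from 12 cultures was made into TruSeq libraries, per the labels' protocols. The submitters' processing notes name bcl2fastq 2.15.0, Bowtie 1.0.1, RSEM 1.2.30 and the build mm9. Options and strand setting were not found in the labels. Expected counts per gene, as deposited by the authors, are rounded to whole numbers (338 are 0 beside an FPKM above 0). A second deposited table holds log2(FPKM + 1), and another table gives each row its gene symbols. Symbols were matched to the comma-split field, and the row with the highest mean count was used. All 189 listed symbols had a row, and Rock1 and Rock2 share one.

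Counts were tested with edgeR 4.0.16 in R 4.3.3: filterByExpr (minimum count 10, minimum total 15), TMM factors from 0.923 to 1.07, and 1 quasi-likelihood model of all 12 libraries with group as its term. There were 5 contrasts, each adjusted by Benjamini-Hochberg over 13951 genes at 0.05. "Rose", "fell", "higher" and "lower" for a named gene's change are used for what passed, or values are given. SEs are the log2 change divided by the root of F. CPM uses TMM-adjusted library sizes. The model was checked on simulated data.

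Alternatives were DESeq2 1.42.0, limma 3.58.1 on the log2 FPKM values, other scalings and filters, a replicate block, fits of the compared groups alone, and leaving out each library. Replicate numbers are shared between groups but are not said to pair samples. Named genes are the 8 genes, their close relatives, the regulators and defining markers of 12 further lists, up to 4 genes with the largest change per list and direction, and the 3 genes of most similar course. The 8 genes and all lists were chosen with earlier results of these data known. The looser CArG search, Pcsk7, Cdh3, Vim and Perp were added after values or sequences were seen. Intervals of counting error are not given, and 3 counts serve as the limit of detection.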

Additional observations from a re-analysis of the deposited data

Results flagged for a closer look

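In 5 of the 8 genes the spheroid effect at 96 h differed from that at 48 h by edgeR's interaction test, which 53.3% of all tested genes passed. The interaction was 0.81 on the log2 scale for Trp63, 1.70 for Acta2, 1.62 for Cnn1, 1.76 for Tagln and -1.97 for Mme. Acta2, Cnn1 and Tagln fell between 48 h and 96 h in monolayers by 2.98, 2.17 and 3.17 on the log2 scale, and in spheroids their values were -1.29, -0.55 and -1.41, of which that of Cnn1 did not pass. Mme rose in monolayers (0.79) and fell in spheroids (-1.17). With 3 libraries per group, no test for a single outlying library was made.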

How the results depend on the processing

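The 8 genes passed in the same direction between formats at 48 h and 96 h, and over time in monolayers, under all 20 alternatives. In spheroids over time 5 or 6 of them passed, and in the interaction 5 or 6. The interaction of Oxtr, which did not pass at -0.07, was 0.68 on the log2 FPKM values (adjusted p = 0.00042 by limma), where the added 1 shrinks monolayer levels below 1 FPKM. There that of Mylk passed as well (0.49, adjusted p = 0.0335). Leaving out 1 library at a time, 7417 to 8145 genes were called between formats at 48 h, 9784 to 10687 at 96 h, 7610 to 8644 over time in monolayers, 4537 to 6179 in spheroids and 6834 to 7724 in the interaction. Scaling by total count moved the median of all genes by 0.109 between formats at 48 h, by 0.171 over time in monolayers and by -0.188 in the interaction, and raised the share of called genes that were higher from 54.5% to 65.1% and from 49.0% to 66.2%, or lowered it from 50.5% to 34.2%. The log2 FPKM values gave 65.2%, 65.2% and 35.6%. The replicate block left 8, 8, 8, 6 and 5 of the 8 genes called in the order of the comparisons above, as without it. Same-numbered libraries did not deviate together (r from -0.0576 to 0.0791 over 12 pairs, and from -0.0468 to 0.0790 over 24 pairs of different numbers). With 3 libraries per group this check cannot exclude that equal numbers share a mouse or a day. Depth limits Oxtr in monolayers and Cnn1 in spheroids most, with 36 and 30 counts per group at 48 h.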

Other observations

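Luminal markers, the counterpart of the myoepithelial genes, were mostly higher in spheroids when counted gene by gene. Of 15 tested, 12 were higher and 2 lower at 48 h (median log2 change 1.84), and 13 were higher and 0 lower at 96 h (median 1.67, beside 0.00 over all genes). By edgeR, 31.6% of all tested genes were higher and 26.4% lower at 48 h, and 37.3% higher and 36.5% lower at 96 h. The summed level of the 15 was lower in spheroids at 48 h, with 5572 to 5893 CPM in 48S against 7094 to 8346 CPM in 48M. At 96 h the sum was higher in spheroids, with 4970 to 5274 CPM in 96S against 2850 to 3019 CPM in 96M. Prlr, the prolactin receptor gene, was higher by 3.07 at 48 h and 2.52 at 96 h. Elf5 was higher by 4.52 and 4.56. Krt8 and Krt18, the paired luminal keratins, were the 2 that were lower at 48 h (-0.98 and -1.53), and at 96 h Krt8 was higher (0.42) while the value of Krt18 (0.12) did not pass. The spheroids held more Trp63, Krt5 and Krt14 and also more Prlr and Elf5, in CPM, than the monolayers at each time.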
